A study of Homo sapiens with 4 samples.

Results

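The 39 genes described here encode the cell-cell junctions and polarity proteins of epithelial cells, together with regulators and markers of the epithelial to mesenchymal transition. They were chosen by name, and their Entrez Gene identifiers were looked up in the gene tables of 4 RNA-seq libraries that together list 17963 genes. In all, 37 of the 39 had a row, and ESRP1 and GRHL2 are not analysed here. By role they were 9 adherens junction genes, 5 desmosome genes, 13 tight junction genes, 3 polarity genes, 3 regulators of the epithelial state and 6 mesenchymal regulators or markers.

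The groups held 1 library each, all from cells labelled HepG2, a human line established from a liver tumour. Cells of the library labelled JFK were transfected with FLAG-tagged JFK, an older name of FBXO42, the F-box subunit of a ubiquitin ligase, and cells of the Vector library received the vector. Cells of the ING5 siRNA library were treated with an siRNA against ING5, which belongs to complexes that acetylate histones, and cells of the Control siRNA library with a control siRNA. Since a group is 1 library, no replicate checks any difference and no p-value is given. The intervals are exact 95% intervals of a ratio of counts (Clopper-Pearson), which cover counting error only, since reads are not independent molecules.

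An adherens junction is built on a classical cadherin, whose tail binds beta-catenin or plakoglobin and, through alpha-catenin, the actin cytoskeleton. A desmosome uses desmogleins and desmocollins as its cadherins and ties them through plakoglobin, plakophilins and desmoplakin to keratin filaments, while a tight junction seals the space between cells with claudins, occludin and their cytoplasmic scaffolds. In hepatocytes tight junctions close the bile canaliculus. In the mesenchymal transition, repressors of the SNAI, ZEB and TWIST families lower E-cadherin and other junction genes, and the filament protein vimentin is a usual marker; SNAI and ZEB proteins bind E-boxes such as CAGGTG.

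That E-box, CAGGTG on either strand (read as CACCTG on the other), was looked up in the RefSeq promoter table (GRCh38.p14), in the 250 bases before each annotated start. Of the 39 genes 22 had a window, some with several starts. Of their 40 windows 12 held the motif (30.0%), against 17.5% of all 35116 windows, and 6 held at least 2 copies (15.0%), against 2.53% of all windows. The 12 windows with the motif belonged to 10 members, for which no share over all genes was formed. All 35116 windows belonged to 27305 genes, so the shares above compare windows and not genes. The letters are a description, with nothing measured about binding. The 6 windows with at least 2 copies are shown by 1 stretch each, since they belong to desmosomal, tight junction and polarity genes and to ZEB1, itself a repressor. Capitals mark the motif. For DSP and DSG2 the stretch lies outside annotated exons. For the others a site of 30 bases is shown because each copy of the motif in the window overlaps an annotated exon.
JUP, chr17:41786003-41786032, minus strand: ccCACCTGccgagCAGGTGagcgcacggag
DSP, chr6:7541421-7541574, plus strand: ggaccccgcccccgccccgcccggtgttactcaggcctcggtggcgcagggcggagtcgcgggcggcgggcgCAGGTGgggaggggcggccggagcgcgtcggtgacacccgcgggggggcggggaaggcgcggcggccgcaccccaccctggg
DSG2, chr18:31497927-31498042, plus strand: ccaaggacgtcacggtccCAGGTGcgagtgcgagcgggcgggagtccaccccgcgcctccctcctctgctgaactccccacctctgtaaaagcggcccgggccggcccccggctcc
CLDN7, chr17:7262479-7262508, minus strand: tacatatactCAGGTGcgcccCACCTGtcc
CRB3, chr19:6464041-6464070, plus strand: tgCAGGTGtaaggtccccctcaCACCTGcg
ZEB1, chr10:31318972-31319001, plus strand: caCACCTGaggaaaacttttccctcgcccc
The CRB3 window held 5 copies and the shown window of CLDN7 held 4. In the shown window of JUP the copies began 54 and 43 bases before the start. The other window of CLDN7 and that of JUP held 0 copies, and ZEB1 had 7 windows. The E-cadherin gene, CDH1, had no window.

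The library labelled JFK had 7237320 reads assigned to genes, against 7179580 in Vector, and ING5 siRNA had 9030080 against 9196980 in Control siRNA. The ING5 transcript had 81 counts in ING5 siRNA against 144 in Control siRNA (57.0% after normalisation). FBXO42 had 115 counts in the library labelled JFK against 116 in Vector, so the transcript was not higher where the label names overexpression. Of 19 hepatocyte markers 3 (RBP4, VTN and HNF4A) reached 20 counts in every library. ALB, APOA2, APOH, TTR, TF and AMBP had no row in any library, and APOB and AFP had at most 1 count. Most of these markers were thus below 20 counts in libraries labelled HepG2, and the identity of the cells was not tested. For JFK and Vector the files hold expected counts with FPKM, and for the siRNA libraries whole counts with RPKM, so levels of the pairs are set side by side without a test. A gene was called measured in a comparison when its mean normalised count there was at least 20, which held for 29 members in the JFK comparison and 32 in the ING5 siRNA comparison.

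**Figure D1:**
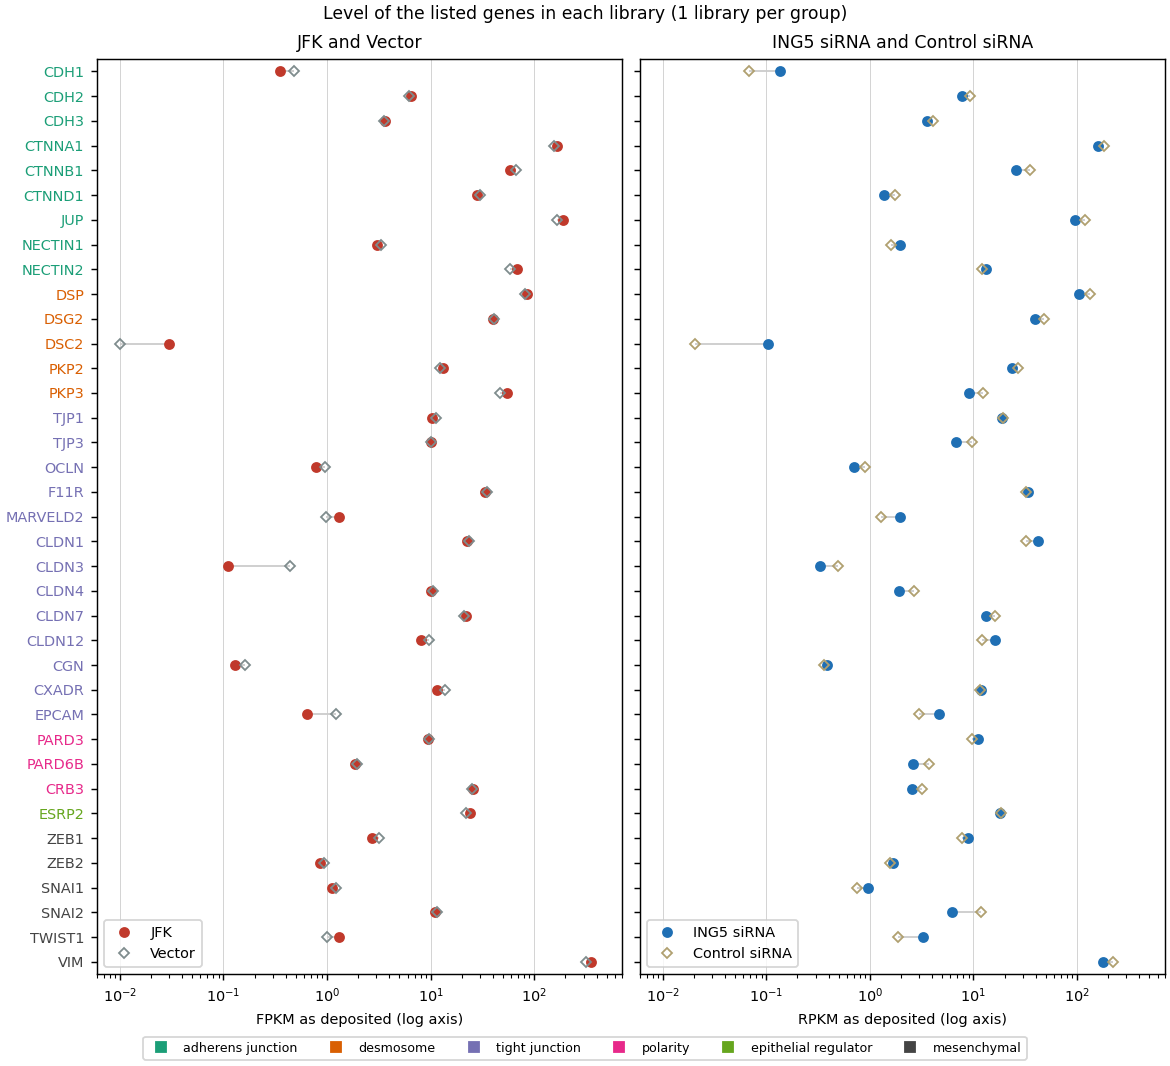
Deposited level of each of the 37 genes with a row, in FPKM (left) or RPKM (right) on log axes, 1 point per library, with gene names coloured by role. VIM, CTNNA1, JUP and DSP lie at the high end in both panels, CDH1, DSC2, CLDN3 and CGN lie below 1 FPKM or RPKM, and the points of a pair mostly overlap.

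The libraries, labelled HepG2, held junction transcripts with almost no E-cadherin transcript. CDH1 (Entrez Gene 999), for E-cadherin, the classical cadherin of most epithelia, had 12.33 expected counts in the library labelled JFK against 16.58 in Vector, and 6 counts in ING5 siRNA and 3 in Control siRNA. Its level was 0.35 FPKM in the library labelled JFK, 0.48 in Vector, 0.137 RPKM in ING5 siRNA and 0.0677 in Control siRNA, low in every library. CDH2 (Entrez Gene 1000), for N-cadherin, which hepatocytes carry beside E-cadherin and which is gained in the mesenchymal transition, stood at 6.53 and 6.18 FPKM in JFK and Vector, and at 7.75 and 9.28 RPKM in ING5 siRNA and Control siRNA. The N-cadherin transcript thus exceeded that of E-cadherin per length 18.7-fold and 12.9-fold in JFK and Vector. P-cadherin, encoded by CDH3 beside CDH1 on chromosome 16, lay between them at 3.66 FPKM in JFK, 3.52 FPKM in Vector, 3.54 RPKM in ING5 siRNA and 4.07 RPKM in Control siRNA.

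The classical cadherin with the highest level in the first pair was CDH5, for VE-cadherin, the cadherin of endothelium, taken from the list of other adherens junction genes. It had 1132 counts (37.3 FPKM) in the library labelled JFK against 995 counts (33.3 FPKM) in Vector, 78.0% and 76.6% of the summed level of CDH1, CDH2, CDH3 and CDH5. In the second pair it had 87 counts (2.31 RPKM) in ING5 siRNA and 224 counts (5.89 RPKM) in Control siRNA, below CDH2 in both. Its log2 fold was 0.21 (interval 0.09 to 0.33) for JFK over Vector and −1.34 (−1.72 to −0.98) for ING5 siRNA over Control siRNA, the lowest value of all measured junction and transition genes in that comparison. The other 7 endothelial markers summed to 40.1 CPM (counts scaled to the library total) in JFK and 37.7 in Vector, and to 16.5 in ING5 siRNA and 12.7 in Control siRNA. Of these, KDR, TEK and CLDN5 had at most 3 counts in any library with a row. EGFL7 had 178 counts in JFK, 162 in Vector, 94 in ING5 siRNA and 62 in Control siRNA. In the same order ESAM had 58, 58, 29 and 34, PECAM1 had 41.32, 42.78, 21 and 16, and VWF had 12, 5, 1 and 2. The summed level was higher in ING5 siRNA than in Control siRNA, and EGFL7 made up 10.4 and 6.74 CPM of it. ESAM and VWF were lower in ING5 siRNA, and PECAM1 was higher. The part of endothelial cells in the fold of CDH5 was not tested. Of the 7, 3 reached 20 counts in JFK, 3 in Vector, 3 in ING5 siRNA and 2 in Control siRNA.

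Transcripts of desmosomal plaque genes and of mainly 1 desmoglein were present, with hardly any desmocollin transcript. DSG2, the desmoglein of simple epithelia, stood at 40.5 FPKM in JFK, 40.9 FPKM in Vector, 39.6 RPKM in ING5 siRNA and 47.9 RPKM in Control siRNA, over 98% of the summed desmoglein level in each library. The 3 desmocollins, the partners of desmogleins, summed to 0.64 FPKM in JFK, 0.63 FPKM in Vector, 0.396 RPKM in ING5 siRNA and 0.318 RPKM in Control siRNA. DSC2, the desmocollin member of the set, had 1 count in JFK, 0 in Vector, 5 in ING5 siRNA and 1 in Control siRNA, at or near the floor of 3 counts. The plaque genes were abundant. JUP, for plakoglobin, which serves both adherens junctions and desmosomes, had 190 FPKM in JFK and 166 FPKM in Vector, and 95.8 RPKM in ING5 siRNA and 120 RPKM in Control siRNA, which was 3.25, 2.47, 3.69 and 3.43 times the level of CTNNB1 in the same library.

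**Figure D2:**
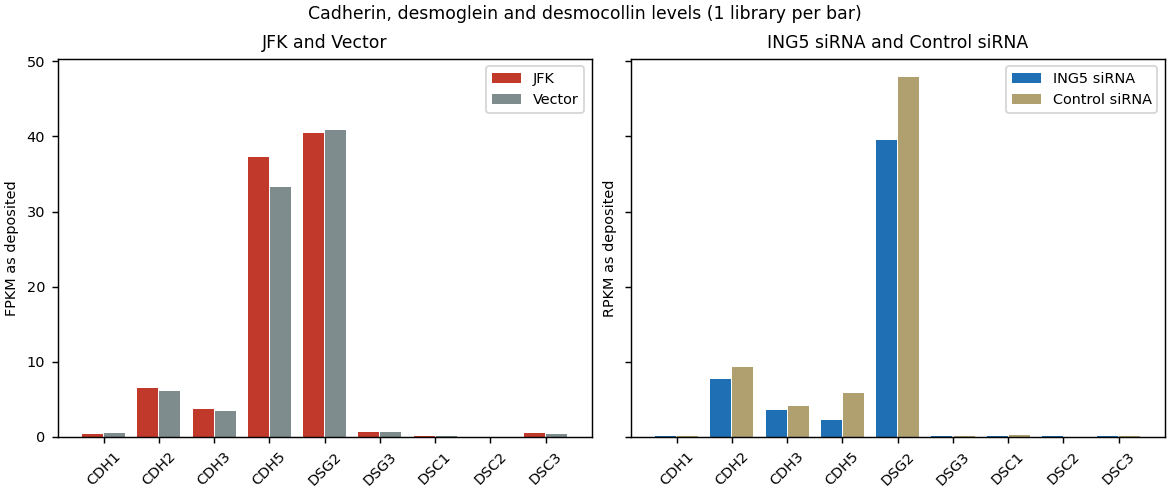
Deposited level of the classical cadherins CDH1, CDH2, CDH3 and CDH5 and of desmogleins and desmocollins, in FPKM (left) or RPKM (right), 1 bar per library. DSG2 is high in all 4 libraries, CDH5 is above 30 FPKM in JFK and Vector and below 6 RPKM in ING5 siRNA and Control siRNA, and CDH1 and the desmocollins are close to 0 throughout.

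Among tight junction genes the levels ranged from 0.11 to 33.9 FPKM in JFK and from 0.16 to 34.8 FPKM in Vector, with F11R, for the adhesion molecule JAM-A, highest in both. CLDN1, for a barrier-forming claudin, was the claudin with the highest level in each library, at 22.5 FPKM in JFK, 23.5 FPKM in Vector, 42.3 RPKM in ING5 siRNA and 32.0 RPKM in Control siRNA. CLDN3 and the scaffold gene CGN, for cingulin, stayed below 0.5 FPKM or RPKM in all libraries. The mesenchymal side was led by VIM, for vimentin, at 358 FPKM in JFK, 318 FPKM in Vector, 180 RPKM in ING5 siRNA and 223 RPKM in Control siRNA, the highest level of the whole set in every library. Of the repressors among the 39 genes, SNAI2 was highest in JFK and Vector (11.1 and 11.6 FPKM) and in Control siRNA (11.9 RPKM), while in ING5 siRNA ZEB1 (8.78 RPKM) lay above SNAI2 (6.24 RPKM). TWIST2, outside the set, stood above both in each library, at 15.5 FPKM in JFK, 16.2 FPKM in Vector, 9.88 RPKM in ING5 siRNA and 16.0 RPKM in Control siRNA. SNAI1 had 12 to 15 counts in each library and was measured in neither comparison.

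The JFK comparison addresses which transcripts differ with the FLAG-JFK plasmid. In it 0 of the 29 measured members were 1.5-fold higher, against 1.5% of the 12107 genes measured, and 0 were 1.5-fold lower, against 2.07%. At these shares a set of this size would hold few or none, so the counts say nothing particular about the members. At 2-fold the members were likewise 0 and 0, against 0.273% higher and 0.297% lower. The members had a median log2 fold of 0.02, with 16 above 0 against 50.5% of all genes, and ranged from −0.26 for OCLN to 0.26 for PKP3. The interval lay wholly above 0 for 7 members, against 14.3% of all genes measured, and wholly below 0 for 1, against 11.2%. Among the 25 members with a mean of at least 100 counts these numbers were 7, against 17.3% of genes at that depth, and 1, against 13%. In bulk RNA, fewer cells of a type and less RNA per cell cannot be told apart.

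Among adherens junction genes 6 of 8 lay above 0, against 50.5% of all genes measured. JUP had 4623 counts in the library labelled JFK against 3955 in Vector (log2 fold 0.25, interval 0.19 to 0.31). CTNNA1, for alpha-catenin, the link to actin, had 4625 and 4295 counts in JFK and Vector (0.13, interval 0.07 to 0.19). NECTIN2, for a nectin, an immunoglobulin-like adhesion receptor that sits beside cadherins, had 1173 and 1014 counts in JFK and Vector (0.23, interval 0.11 to 0.36). These 3 stood higher in JFK by less than 1.2-fold. CTNNB1, for beta-catenin, which also acts in WNT signalling, went the other way, with 1468 counts in JFK and 1673 in Vector (−0.16, interval −0.27 to −0.06). NECTIN1 had 98 and 92 counts in JFK and Vector but 3.06 and 3.29 FPKM, so that its direction depended on the column read; count and FPKM differed there by 12.8% in Vector.

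All 4 measured desmosome genes lay above 0 in JFK, against 50.5% of all genes measured. PKP3, for plakophilin 3, had 1136 counts in JFK and 963 in Vector (0.26, interval 0.14 to 0.39), and DSP, for desmoplakin, had 5513 and 5252 (0.09, interval 0.04 to 0.15). The intervals of DSG2 (0.03, −0.07 to 0.13) and PKP2 (0.12, −0.07 to 0.33) held 0. A list of 7 squamous and basal epithelial markers, which includes the desmosomal cadherins DSG3 and DSC3, summed to 3819 CPM in JFK and 2935 CPM in Vector, nearly all of it from the keratin gene KRT17, and its part in these folds was not tested. Of those 7 markers 4 reached 20 counts in both libraries and 2 were at 0 or had no row.

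None of the 9 tight junction and 3 polarity members measured had an interval clear of 0 in the JFK comparison. Of all genes 14.3% had one above 0 and 11.2% one below. Of 9 measured tight junction genes 6 lay below 0, against 49.5% of all genes. Among them was CLDN12, with 218 counts in JFK and 253 in Vector (−0.19, interval −0.46 to 0.08). OCLN, for occludin, had 32.88 and 40.27 expected counts in JFK and Vector, and its interval of −0.96 to 0.45 spans more than the whole range of the other members. The polarity genes PARD3, PARD6B and CRB3 lay between −0.02 and 0.05. ESRP2, an epithelial splicing regulator, had 708 and 642 counts in JFK and Vector (0.17, interval 0.01 to 0.32).

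VIM had 5598 counts in the library labelled JFK against 4907 in Vector (0.21, interval 0.16 to 0.27). It stood higher in JFK, as did the epithelial genes JUP and PKP3. The repressor genes did not move beyond counting error: ZEB1 had 120.65 and 137.02 expected counts in JFK and Vector (−0.16, interval −0.52 to 0.21), SNAI2 had 171 and 176 counts (−0.02, interval −0.33 to 0.29), and ZEB2 had 51 and 53 counts (−0.03, interval −0.61 to 0.55). The 10 fibroblast markers summed to 87.0 CPM in JFK and 82.5 CPM in Vector, with 5 of 10 at 20 counts or more in both and 3 of 10 at 0 or without a row in both.

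The folds of this comparison followed the base composition of the transcripts. Over 11907 genes with a known transcript, the log2 fold of JFK over Vector had a Spearman correlation of 0.53 with the GC content of the longest transcript, and the median fold ran from −0.17 in the lowest of 10 equal bins of GC content to 0.17 in the highest. Over the 29 members the correlation was 0.76. These points come from the same 2 libraries and are a description. Relative to genes of like GC content, an alternative added after seeing the data, JUP lay at 0.09 and PKP3 at 0.09 and NECTIN2 at 0.10, while VIM lay at 0.25, CTNNA1 at 0.14 and DSP at 0.10. CTNNB1 lay at −0.09 and ESRP2 at 0.03, both nearer to 0. Members above 0 then numbered 19 of 29 and not 16. The part of base composition in the folds was not tested beyond this.

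**Figure D3:**
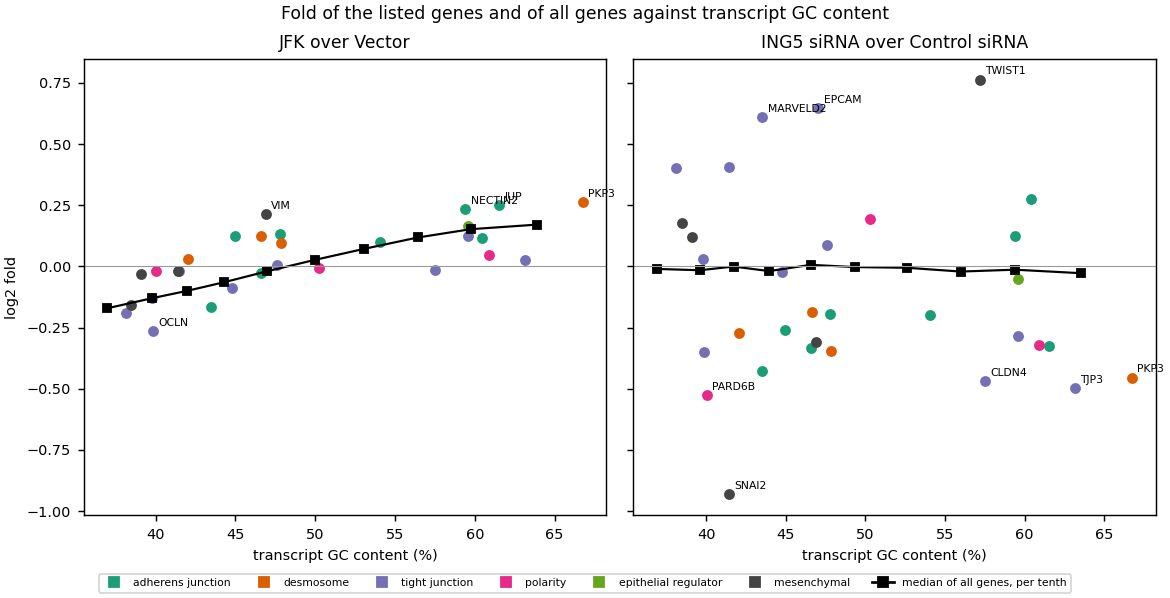
Log2 fold against transcript GC content in percent for the measured members (points coloured by role) and for all genes (black line, median fold in each of 10 GC bins), with JFK over Vector on the left and ING5 siRNA over Control siRNA on the right. The black line climbs with GC content from −0.17 to 0.17 on the left, and the members climb with it, whereas on the right it stays near 0 and the members scatter.

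The ING5 siRNA comparison addresses which transcripts differ when ING5 is depleted. More of the junction genes lay below than above the Control siRNA level, by small folds. The median log2 fold of the 32 measured members was −0.20, against −0.01 for all 11634 genes measured, and 20 members lay below 0, against 51.4% of all genes. At 1.5-fold, 3 members were higher, against 4.01% of all genes measured, and 1 was lower, against 4.4%. At 2-fold 0 were higher and 0 lower, against 0.765% and 0.696% of all genes. The interval lay wholly below 0 for 13 members, against 20.6% of all genes, and wholly above 0 for 5, against 18.3%. With a mean of at least 100 counts, where intervals are narrow, it lay below 0 for 13 of 24 members, against 24.2% of genes at that depth, and above 0 for 3, against 20.5%. Lower junction transcripts under ING5 siRNA were already known from these libraries when the set was drawn up, so the count is not independent evidence of a direction.

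The 4 measured desmosome genes lay below 0 with intervals clear of it. Of all genes with a mean of at least 100 counts, 24.2% had such an interval. Lower junction transcripts were known from these libraries when the set was drawn up. DSP had 9256 counts in ING5 siRNA and 11880 in Control siRNA (−0.34, interval −0.38 to −0.30), and DSG2 had 2046 and 2502 (−0.27, interval −0.36 to −0.19). PKP2, for plakophilin 2, had 950 and 1093 (−0.19, interval −0.31 to −0.06), and PKP3 had 235 and 326 (−0.46, interval −0.70 to −0.21). All 4 were thus lower in ING5 siRNA, by 1.4-fold or less. Relative to genes of like GC content their median was −0.31, the same as without that step. The 7 squamous and basal markers summed to 257 CPM in ING5 siRNA and 297 CPM in Control siRNA, with 1 of 7 at 20 counts or more in each, and their part was not tested.

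Of the adherens junction genes 6 of 8 lay below 0, against 51.4% of all genes measured. CTNNB1 had 880 counts in ING5 siRNA and 1198 in Control siRNA (−0.43, interval −0.56 to −0.30). JUP had 3061 and 3877 (−0.32, interval −0.39 to −0.26), and CTNNA1 had 5452 and 6310 (−0.19, interval −0.25 to −0.14). CDH2 was lower too, with 309 counts in ING5 siRNA and 374 in Control siRNA (−0.26, interval −0.48 to −0.04). N-cadherin, beta-catenin, plakoglobin and alpha-catenin were thus the 4 of 8 with an interval below 0, against 20.6% of all genes. An interval above 0 was seen for 0 of the 8, against 18.3%. Such lower transcripts were already known from these libraries when the set was drawn up. CDH1 had 6 and 3 counts in ING5 siRNA and Control siRNA, too few for a direction. NECTIN1 (0.27, interval −0.16 to 0.72) and NECTIN2 (0.12, interval −0.10 to 0.35) lay above 0 with intervals that held it.

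CTNND1, for p120-catenin, which holds cadherins at the membrane, is uncertain. It had 1224.69 and 1270.4 expected counts in JFK and Vector but 80 and 102 counts in ING5 siRNA and Control siRNA. A readthrough transcript that overlaps it, TMX2-CTNND1, had 115 expected counts in JFK and 116 in Vector, against 0 in ING5 siRNA and 1 in Control siRNA. Reads shared by such overlapping entries could have been assigned in different ways in each pair, which was not tested. Its fold was −0.03 for JFK over Vector and −0.33 (interval −0.78 to 0.10) for ING5 siRNA over Control siRNA.

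Tight junction genes divided in the ING5 siRNA comparison. Of 11 measured, 6 lay above 0, against 48.6% of all genes, and 5 below, against 51.4%. TJP3, for the scaffold ZO-3, had 196 counts in ING5 siRNA and 280 in Control siRNA (−0.50, interval −0.77 to −0.23), and CLDN7 had 246 and 303 (−0.28, interval −0.53 to −0.04). In contrast CLDN1 had 1329 counts in ING5 siRNA and 1015 in Control siRNA (0.40, interval 0.29 to 0.52), and CLDN12 had 536 and 410 (0.40, interval 0.21 to 0.59). Claudins thus differed in both directions, with CLDN1 the larger in level. TJP1, for the scaffold ZO-1, had 1228 and 1262 counts in ING5 siRNA and Control siRNA (−0.02, interval −0.14 to 0.09), and F11R (0.09) and CXADR (0.03), for adhesion molecules of the same junction, had intervals that held 0.

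The members past 1.5-fold higher had few reads. EPCAM, for an adhesion molecule of simple epithelia, had 73 counts in ING5 siRNA and 47 in Control siRNA (0.65, interval 0.10 to 1.21). MARVELD2, for tricellulin, which closes the points where 3 cells meet, had 41 and 27 (0.61, interval −0.12 to 1.38). TWIST1, a mesenchymal transcription factor, had 49 and 29 (0.76, interval 0.08 to 1.49). None of these 3 had a mean of 100 normalised counts, and in the JFK comparison, with 8 to 22.07 counts a library for the first pair of genes and 16 and 12 for TWIST1, none was measured.

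Polarity genes also divided. PARD6B, a Par complex adaptor, had 109 counts in ING5 siRNA and 159 in Control siRNA (−0.53, interval −0.89 to −0.17), while PARD3, the scaffold of that complex, had 601 and 532 (0.19, interval 0.02 to 0.36). CRB3, a Crumbs complex protein, had 26 and 33 counts (−0.32, interval −1.13 to 0.46). Of this small group the adaptor stood lower and the scaffold higher. ESRP2 lay at −0.05 (interval −0.21 to 0.10).

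The mesenchymal genes did not move together either. SNAI2 (Entrez Gene 6591), for Slug, a repressor of E-cadherin, had 120 counts in ING5 siRNA and 232 in Control siRNA (−0.93, interval −1.27 to −0.61), the largest fold of all measured members and the only one past 1.5-fold lower. VIM had 3525 and 4414 counts in ING5 siRNA and Control siRNA (−0.31, interval −0.37 to −0.24). Both stood lower, along with the junction genes above. ZEB1 had 502 and 449 counts (0.18, interval −0.01 to 0.36) and ZEB2 had 142 and 132 (0.12, interval −0.23 to 0.47), above 0 within counting error, and TWIST1 was higher. The 10 fibroblast markers summed to 106 CPM in ING5 siRNA and 103 CPM in Control siRNA, with 7 of 10 at 20 counts or more in each and 3 and 2 at 0 or without a row. Single markers, picked after their values were seen, went both ways: FAP had 81 counts in ING5 siRNA and 22 in Control siRNA and COL3A1 had 352 and 278, while DCN had 37 and 74 and LUM had 232 and 294. Their part in the folds of VIM and SNAI2 was not tested.

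**Figure D4:**
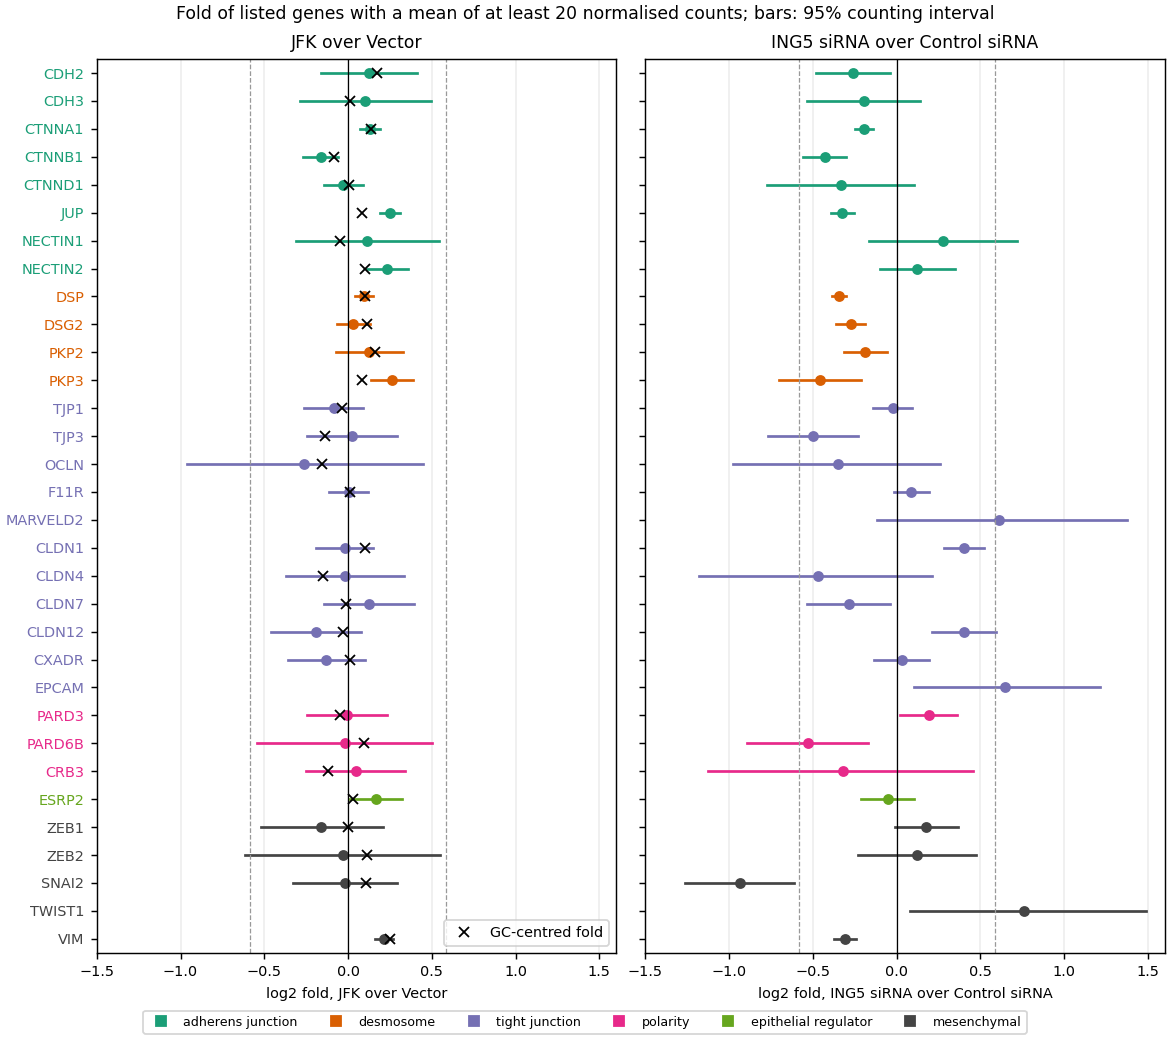
Log2 fold with its exact 95% counting interval for members with a mean of at least 20 normalised counts, JFK over Vector on the left and ING5 siRNA over Control siRNA on the right, with dashed lines at 1.5-fold, crosses for folds relative to genes of like GC content and colours for roles. On the left all points lie between −0.26 and 0.26, and on the right the desmosome genes, JUP, CTNNB1, CTNNA1 and VIM lie left of 0, SNAI2 lies farthest left and CLDN1, CLDN12, EPCAM and TWIST1 lie right of 0.

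The comparisons share no library, so their values for a member can be set beside each other. Of 29 members measured in both, 19 lay on opposite sides of 0, which is 65.5%, against 50.3% of all 11148 genes measured in both. Of those, 13 were higher in JFK and lower in ING5 siRNA, and 6 the reverse. An interval above 0 in JFK with one below 0 in ING5 siRNA was seen for 5 members, against 403 of all 11148 genes (3.61%). These were CTNNA1, DSP, JUP, PKP3 and VIM. The other way round, 0 members had such intervals, against 270 of all 11148 genes. The share of 3.61% covers every gene measured in both and was not matched for depth. Lower junction transcripts under ING5 siRNA were known when the set was drawn up. The counts are thus not independent evidence of a direction. Both intervals lay clear of 0 in the same direction for 1 member, against 756 of all 11148 genes. That member, CTNNB1, was lower in both comparisons, though its fold in JFK was nearer to 0 relative to genes of like GC content. JUP and PKP3 are among the members whose fold in JFK was smaller relative to genes of like GC content.

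**Figure D5:**
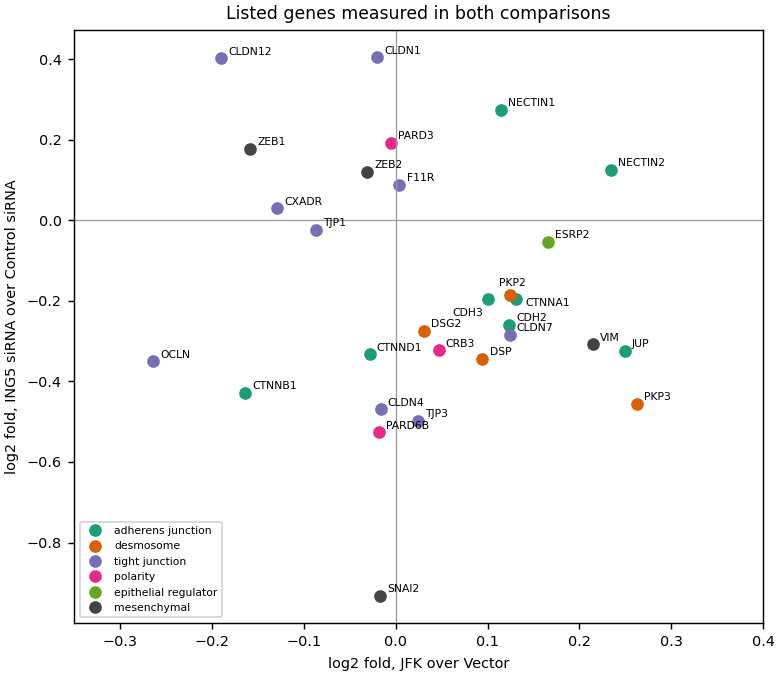
Log2 fold of JFK over Vector (horizontal) and of ING5 siRNA over Control siRNA (vertical) for the 29 members measured in both, coloured by role. The lower right field, higher in JFK and lower in ING5 siRNA, holds 13 members including JUP, PKP3, DSP, CTNNA1 and VIM, and SNAI2 lies alone at −0.93 on the vertical axis.

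Further genes of the same structures were read from 6 lists, by role, of 138 genes in all. In the JFK comparison 84 were measured, with a median log2 fold of 0.09; 3 were at least 1.5-fold higher, against 1.5% of all genes, and 0 lower, against 2.07%. The higher ones were CLDN23, a claudin gene, with 32 counts in JFK and 18 in Vector (0.84), PARD6A, a Par complex gene, with 32 and 21 (0.62), and TAGLN, for the actin-binding protein transgelin, with 51 and 31 (0.73). Of these 3 only TAGLN had an interval clear of 0 (0.07 to 1.44). Intervals lay above 0 for 22 of the 84, where all genes had 14.3%, and below 0 for 5, where all genes had 11.2%; relative to genes of like GC content the median was 0.04. Of the plaque genes, PPL, for periplakin, had 1693 counts in JFK and 1455 in Vector (0.24, interval 0.14 to 0.34; 0.11 relative to genes of like GC content), and PKP4, for a plakophilin relative, had 424 and 460 (−0.09, interval −0.29 to 0.10). Other tight junction genes had 5 intervals above 0 and 1 below, and other polarity genes 3 above and 1 below. Among them SYMPK, for symplekin, lay at 0.24 (interval 0.13 to 0.36) and CLMP, for an adhesion molecule, at −0.16 (interval −0.28 to −0.05). SCRIB, a basolateral polarity gene, lay at 0.27 (interval 0.15 to 0.39) and PALS1, for a Crumbs complex scaffold, at −0.29 (interval −0.49 to −0.09). Relative to genes of like GC content, SYMPK lay at 0.11, SCRIB at 0.09, CLMP at −0.11 and PALS1 at −0.18.

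In the ING5 siRNA comparison 76 of the 138 were measured, with a median of −0.03, and 3 were at least 1.5-fold higher, against 4.01% of all genes, and 3 lower, against 4.4%, so that the list stood near the general share. Besides CDH5, the lower ones were LLGL2, a basolateral polarity gene, with 248 counts in ING5 siRNA and 389 in Control siRNA (−0.63, interval −0.87 to −0.40), and TWIST2, a relative of TWIST1, with 129 and 211 (−0.69, interval −1.02 to −0.37). The 2 TWIST genes therefore lay on opposite sides of 0. The higher ones were LIMA1, PRSS8 and CLDN18. LIMA1, for an actin-binding partner of alpha-catenin, had 2610 and 1689 counts (0.64, interval 0.56 to 0.73). PRSS8, for the epithelial protease prostasin, had 32 and 15 (1.08, interval 0.18 to 2.10), and CLDN18 had 28 and 14 (0.99, interval 0.04 to 2.06). Intervals lay above 0 for 18 of the 76, where all genes had 18.3%, and below 0 for 16, where all genes had 20.6%. Other adherens junction genes had 3 intervals above 0 and 2 below, other tight junction genes 5 and 3, and other polarity genes 3 and 3.

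Of 9 measured genes in the list of other epithelial regulators, which holds proteases and their inhibitors beside transcription factors, 6 lay below 0, against 51.4% of all genes. The interval lay below 0 for 3 and above 0 for 1, against 20.6% and 18.3%. EHF, an epithelial ETS factor, had 1124 counts in ING5 siRNA and 1662 in Control siRNA (−0.55, interval −0.66 to −0.44). KLF5, a factor of proliferating epithelia, had 1831 and 2332 (−0.33, interval −0.42 to −0.24), and FOXA1, a pioneer factor of liver and other endoderm, had 370 and 492 (−0.39, interval −0.59 to −0.20). These 3 are the ones with an interval below 0, and the 1 above is that of PRSS8. Of 4 measured desmosome genes outside the set, 2 had an interval below 0 and 1 above, against 20.6% and 18.3% of all genes. PERP, for a desmosomal membrane protein, lay at −0.21 (interval −0.29 to −0.13) and PPL at −0.13 (interval −0.21 to −0.05). PKP4 lay at 0.38 (interval 0.26 to 0.50). The list of other mesenchymal genes had 5 intervals above 0 and 3 below among 19 measured, against 18.3% and 20.6% of all genes. FN1, for the matrix protein fibronectin, had 157 counts in ING5 siRNA and 109 in Control siRNA (0.54, interval 0.18 to 0.91). S100A4, the most abundant of that list, had 3046 and 3652 (−0.25, interval −0.32 to −0.18).

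By the number of genes past 2-fold, the controls themselves lay farther apart than either treated library from its own control. Between Control siRNA and Vector, 6 of 32 members were at least 2-fold higher, against 15.9% of all genes, and 5 at least 2-fold lower, against 17.5%. The median absolute log2 ratio was 0.67 over members and 0.71 over all genes. Higher in Control siRNA were ZEB1 (1.51), EPCAM (1.42), PKP2 (1.25), ZEB2 (1.11), PARD6B (1.09) and TWIST1 (1.05), and lower were CTNND1 (−3.83), CRB3 (−2.71), NECTIN2 (−1.86), CLDN4 (−1.81) and PKP3 (−1.76). Of the lower ones, CRB3, NECTIN2, CLDN4 and PKP3 have transcripts with a GC content of 57.5% or more, and across 11833 genes the ratio had a Spearman correlation of −0.58 with transcript GC content. Treatment, library and quantification cannot be told apart in this contrast.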

How the data were processed

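RNA of 4 samples labelled HepG2, 1 per group, was sequenced with Illumina chemistry. The submitters' processing notes name STAR, fastp, FastQC and DESeq2, and GRCh37 or hg19 as the build; tool versions, their roles and the read counter are not given there. The authors deposited expected counts and FPKM for JFK and Vector and whole counts and RPKM for the siRNA libraries, per the file headers. Among the 37 members with a row, 12 in JFK and 13 in Vector had expected counts that are not whole. A deposited RPKM or FPKM of 0.01 stands for genes at or near 0.

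Genes were matched by Entrez identifier through a RefSeq gene table. Within each pair, counts of all genes were scaled with TMM (trims 0.3 of log ratios, 0.05 of intensities), and log2 ratios were formed after adding 0.5. Python 3.11.15 was used with pandas 2.3.3, numpy 2.4.6, scipy 1.17.1 and, for plots, matplotlib 3.10.9. Expected counts were rounded to whole numbers for intervals. GC content came from the longest GENCODE release 29 transcript and was known for 98.3% and 98.7% of genes measured in the JFK and ING5 siRNA comparisons. For folds relative to genes of like GC content, the median of 1 of 20 GC bins was subtracted. A count test needs replicates and was not run. The steps were tested on simulated data.

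Any of the 39 members may be named. Of the 6 further lists, the 3 highest, the 3 lowest and the 3 most abundant genes could be, and examples are given from these. The members, lists and thresholds were chosen with earlier results of these data known. Marker lists covered hepatocytes, fibroblasts, endothelium, leukocytes, and squamous and basal epithelium; a further marker list is not reported here. Alternatives were other scalings, 5 counts added, no filter, a mean of at least 100 counts, FPKM or RPKM in place of counts, members whose count and FPKM or RPKM match within 5%, and the GC step.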

Additional observations from a re-analysis of the deposited data

How the results depend on the processing

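With no filter on low counts, 1 member was at least 1.5-fold higher and 2 lower in JFK than in Vector, in place of 0 and 0, and 5 in place of 3 were higher in ING5 siRNA than in Control siRNA; those added have means under 20 counts. With a mean of at least 100 counts, 0 were 1.5-fold higher in ING5 siRNA, since EPCAM, MARVELD2 and TWIST1 drop out. The other alternatives kept these counts within 1.5 times. Over all alternatives the median fold of the members ran from −0.02 to 0.03 for JFK over Vector, its negative values coming with total-count scaling and with FPKM, and from −0.21 to −0.18 for ING5 siRNA over Control siRNA, while 16 to 21 members lay below 0 in the ING5 siRNA comparison and 10 to 18 in the JFK comparison. Relative to genes of like GC content, 3 members of the JFK comparison moved by more than their counting interval: JUP to 0.09, NECTIN2 to 0.10 and PKP3 to 0.09. No paired analysis was possible because each group has 1 library, and no replicate could be left out for the same reason. Depth limits CDH1, DSC2, CLDN3, CGN and SNAI1, which were measured in neither comparison.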

Other observations

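The leukocyte and hepatocyte marker lists each rested mostly on 1 gene. The 8 leukocyte markers summed to 185 CPM in JFK and 184 CPM in Vector, and to 50.9 CPM in ING5 siRNA and 61.9 CPM in Control siRNA, most of it from CD68, a lysosomal gene of macrophages that many tumour lines also express. The 19 hepatocyte markers summed to 381 CPM in JFK and 316 CPM in Vector, and to 72.5 CPM in ING5 siRNA and 55.1 CPM in Control siRNA, most of it from VTN.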
